A study of Mus musculus with 13 samples.

Results

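The 43 genes described here encode the proteins that take up and burn fatty acids in mitochondria, the pyruvate dehydrogenase complex and its kinases, and enzymes of the citric acid cycle. They were listed by symbol for their place in these pathways, and all 43 were found among the 17924 genes of the count tables. The rule uses no measured value, but the list was chosen with earlier results of these data known. Long-chain fatty acids enter the muscle fibre with the help of CD36 and transport proteins, are coupled to coenzyme A, and cross the inner mitochondrial membrane as carnitine esters. Beta-oxidation then shortens the chain through a repeated cycle of dehydrogenation, hydration, dehydrogenation and thiolysis, and its acetyl-CoA joins that made from pyruvate in the citric acid cycle. Slow oxidative muscle, of which the mouse soleus is the usual example, relies on these pathways more than fast glycolytic muscle, of which the extensor digitorum longus (EDL) is the usual example, and the psoas of the mouse is also mainly fast.

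RNA was sequenced from whole muscles of mice with muscular dystrophy with myositis (*mdm*), a recessive mutation of *Ttn*, the gene for titin, in animals from a B6C3Fe a/a-*Ttn mdm*/J colony. There were 5 libraries of *mdm* EDL from mice aged 38 to 42 days, 5 of *mdm* psoas from mice aged 29 to 42 days and 3 of *mdm* soleus from mice aged 33 to 38 days. The labels give no treatment, all 13 libraries carried the *mdm* mutation, no wild-type library was analysed here, and sex was recorded for 6 of the 13. The labels do not say which muscles came from the same animal, so that p-values measure the spread between muscle samples, some of which may share an animal. Total counts per library ran from 9114176 to 48835209, and levels are given as normalized counts, that is, the deposited counts divided by the size factor of each library. The muscles matched their labels: slow fibre markers had a median log2 fold change of 3.49 in soleus against EDL and 3.76 in soleus against psoas, and fast fibre markers of −3.73 and −1.65. Every library held markers of other cells, since whole muscles were used, and in such bulk samples fewer fibres of a type and less RNA per fibre cannot be told apart.

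Each gene was compared between muscles with edgeR's quasi-likelihood test. The test covered 17069 genes, those that reached 10 normalized counts in 3 or more libraries, and all 43 genes were among them. A gene was called when its p, adjusted by the method of Benjamini and Hochberg over all genes tested, was under 0.01 and its level differed by more than 1 on the log2 scale. The 3 comparisons share libraries and are not independent of each other.

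In *mdm* psoas, most of the 43 genes had lower levels than in *mdm* EDL. The log2 fold change was below 0 for 36 of 43 genes, against 48.7% of all genes, and its median was −0.59, against 0.02 over all genes. Only *Idh3b* and *Mdh2*, both citric acid cycle genes, were called, both lower, where 2.5% of all genes were called lower and 2.43% higher. At an adjusted p under 0.05 without a limit on fold change, 10 genes were lower and 0 were higher, against 9.06% of all genes in each direction. DESeq2 called 6 genes lower, against 4.53% of all genes, and edgeR with the replicate number as a block called 3, against 3.31%. The 10 genes were *Slc25a20*, *Pdha1*, *Dld*, *Idh3a*, *Idh3b*, *Idh3g*, *Sucla2*, *Fh1*, *Mdh1* and *Mdh2*. When libraries were scaled by their total counts instead, the median log2 fold change of all genes moved to 0.54 and that of the 43 genes to −0.10, with 25 of 43 below 0. Relative to the median of all genes the 43 genes were thus at −0.63 with that scaling and at −0.61 without it, but none was then called lower, where 0.955% of all genes were, and 3 (*Acadl*, *Acsl1* and *Cpt1a*) were called higher, where 12.4% of all genes were. By the study's supplement, no psoas library had a higher RNA integrity number, a measure of RNA quality, than any EDL library. The part of RNA quality in the result was not tested.

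In *mdm* soleus the median difference from either other muscle was smaller, and fatty acid uptake genes and *Idh2* had their highest levels there. Against EDL, the median log2 fold change was −0.13, with 14 genes above 0 and 29 below, against 47.4% and 52.6% of all genes (29 above and 14 below with total-count scaling, where the median of all genes was 0.33). None of the 43 was called by edgeR in either direction, where 0.533% of all genes were called higher and 0.445% lower. At an unadjusted p under 0.05, 5 genes were higher and 7 lower, against 7.96% and 7.18% of all genes, and DESeq2 called 3 higher and 0 lower, against 1.58% and 2.13%. At an adjusted p under 0.05, *Fabp3*, *Slc27a1* and *Idh2* were higher and no gene was lower, against 1.76% and 1.66% of all genes. Against psoas, 37 of 43 genes were above 0, where 47.4% of all genes were, with a median of 0.34, and edgeR again called none, where 0.0703% of all genes were called higher and 0.00586% lower. There the unadjusted p was under 0.05 for 7 genes that were higher and 1 that was lower (6.19% and 6.48% of all genes), the adjusted p was under 0.05 for 1 that was higher, *Idh2*, and 0 that were lower (0.434% and 0.199%), and DESeq2 called *Idh2* higher (0.557%).

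**Figure D1:**
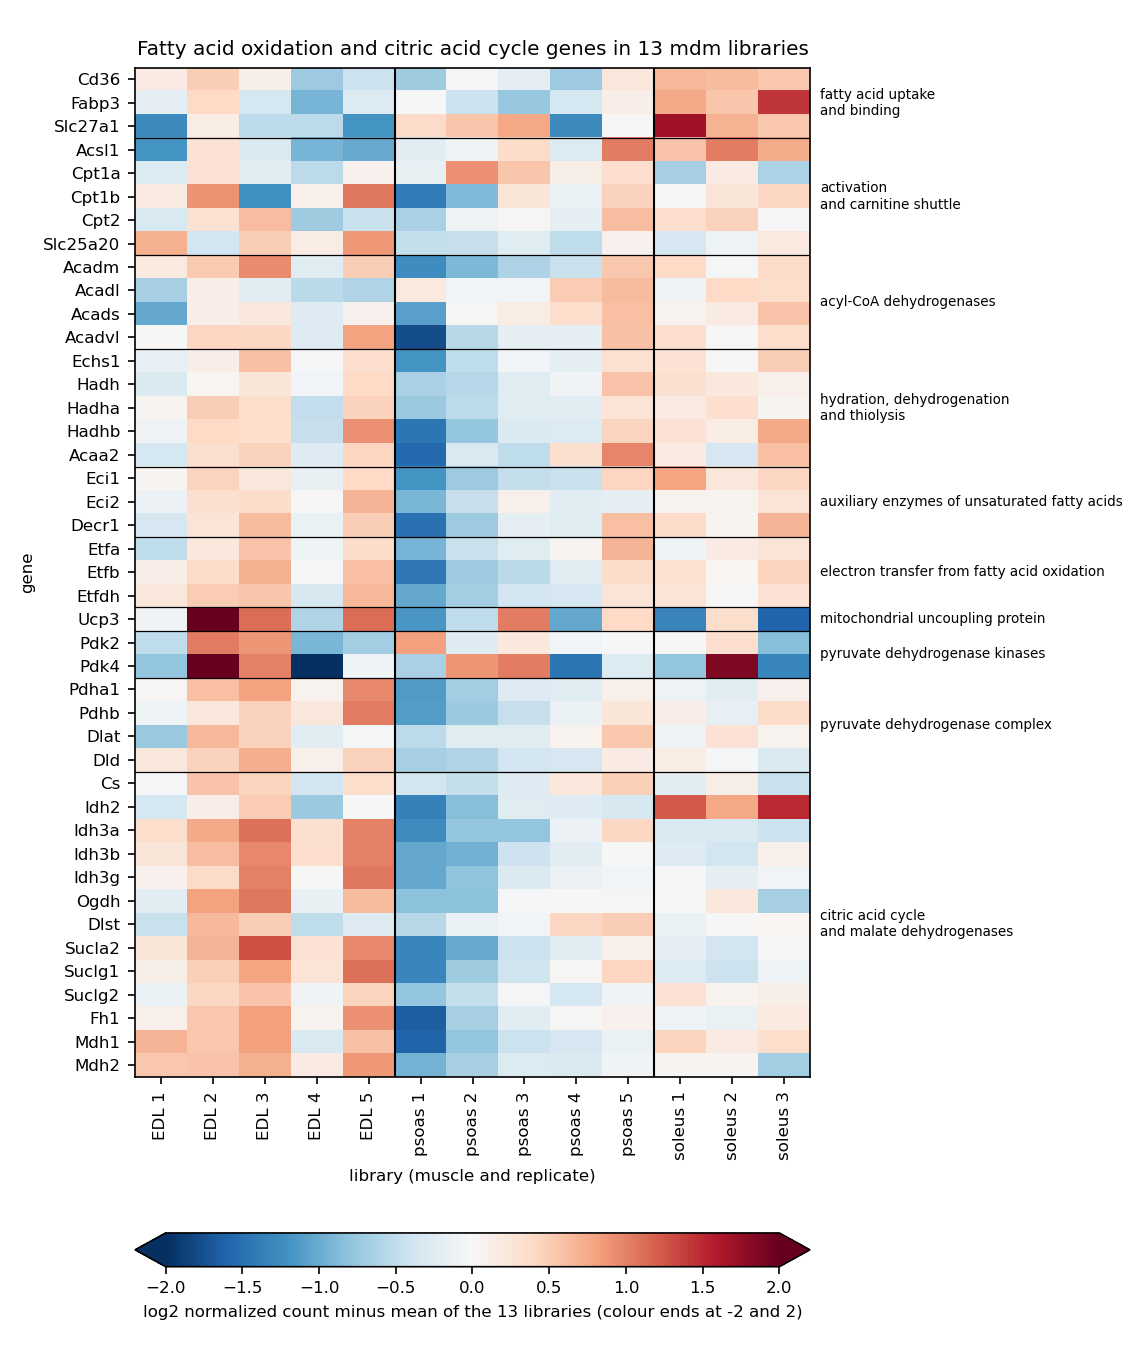
Heat map of the 43 genes (rows, grouped by role) in the 13 *mdm* libraries (columns, by muscle and replicate), with colour giving the log2 normalized count minus the gene's mean over all 13 libraries. Psoas replicate 1 is the lowest of the 13 libraries for 29 genes, and the citric acid cycle rows are mostly above their mean in EDL and below it in psoas.

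The psoas libraries were not alike. Psoas replicate 1, from the youngest mouse at 29 days, had the lowest level of all 13 libraries for 29 of the 43 genes, and psoas replicate 5 had the highest level of the 5 psoas libraries for 35. As the median over the 43 genes of the log2 difference from the mean of all libraries, the psoas libraries stood at −1.02, −0.56, −0.24, −0.21 and 0.30. The EDL libraries stood at −0.07, 0.45, 0.55, −0.22 and 0.46, and the soleus libraries at 0.08, 0.12 and 0.20. Psoas replicate 5 therefore lay above EDL replicates 1 and 4, and the soleus libraries lay within the range of EDL. Without psoas replicate 1 the median of the 43 log2 fold changes between psoas and EDL was −0.45 and no gene was called, and without psoas replicate 5 it was −0.82 and 5 genes were called lower (*Acadm*, *Idh3a*, *Idh3b*, *Mdh2* and *Sucla2*). Of all 17069 genes, 247 were called higher and 200 lower without psoas replicate 1. Without psoas replicate 5, 409 were called lower, against 426 with all libraries. The number called lower was 1 without EDL replicate 1, 3 without EDL replicate 4, 2 without soleus replicate 3 and 0 without any of the remaining 8 libraries. Over all genes the numbers called lower were 407, 449 and 398 in the first 3 of these fits and 147 to 337 in the other 8. Psoas replicate 5 also stood apart in a marker of other cells: *Ucp1*, the uncoupling protein of brown fat, had 6.52, 36.8, 73.3, 73 and 4911 normalized counts in the 5 psoas libraries. The summed level of 3 brown fat markers ran from 127 to 5887 in psoas, from 72.1 to 155 in EDL and from 227 to 273 in soleus. *Ucp1* itself was lower in soleus, at 0.828, 1.43 and 3.44, than in every EDL library (5.10 to 79.5). *Cidea*, another of the 3, made up most of the soleus sum, at 259, 213 and 236. It was called higher in psoas than in EDL. It had 113, 341, 384, 334 and 962 in psoas and 80.5, 64.4, 67.7, 73 and 89.3 in EDL. Every psoas library thus lay above every EDL library. Brown fat is itself rich in enzymes of fatty acid oxidation, and its part in the results was not tested.

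The size of the difference also moved with a code in the sample labels that the labels do not explain (T1 to T6). Every T4 library was from a male, and the T5 libraries were from females and were the only ones aged 42 days. No sex was recorded for T6. Code, sex and age therefore cannot be told apart here. Within code T4 the median log2 difference of psoas from EDL over the 43 genes was −1.01, with 41 genes below 0, and within T5 it was −0.71, with 37 below 0. Within T6, which held 2 libraries of each of these muscles, it was −0.09, with 25 genes below 0 and 18 above. The direction was the same in the 3 codes and the difference in T6 was close to 0, against medians over all genes of 0.085, 0.069 and 0.0090. Between EDL and psoas libraries of the same replicate number, the medians of the 5 pairs were −1.03, −1.01, −0.71, −0.03 and −0.21. Pair 1 joins libraries of unlike age and code. Within T4, soleus had a median of −0.25 against EDL and 0.65 against psoas, and within T6 of 0.08 and 0.13.

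**Figure D2:**
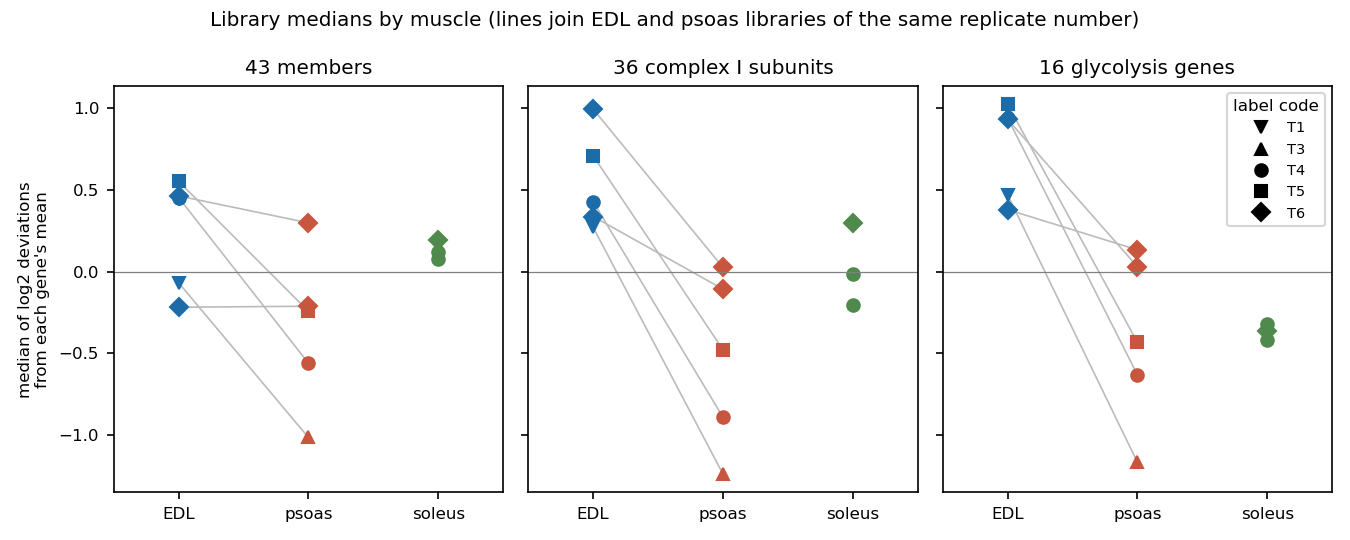
Median over genes of the log2 difference from the 13-library mean, per library, for the 43 genes, 36 subunits of respiratory complex I and 16 genes of glycolysis. Lines join EDL and psoas of the same replicate number and the point shape gives the label code. For the 43 genes the psoas points run from −1.02 to 0.30 and the soleus points from 0.08 to 0.20.

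The uptake genes were the group in which soleus stood highest. All 3 had soleus libraries above every EDL library, as did *Acsl1* and *Idh2*, 5 of the 43 genes against 5.33% of all genes. *Fabp3*, the heart-type fatty acid binding protein that carries fatty acids through the cytosol, had 1290.1, 1943, 1145, 773 and 1212 normalized counts in EDL, 1471, 1085, 870.1, 1144 and 1611 in psoas and 2475, 2145 and 3972 in soleus. The soleus libraries were above all EDL and psoas libraries, with a log2 fold change of 1.17 (SE 0.295, edgeR adjusted p = 0.0431) against EDL and 1.22 (SE 0.295, edgeR adjusted p = 0.0953) against psoas. Within code T4 the soleus difference from EDL was 0.25 and within T6 it was 2.04. *Slc27a1*, a long-chain fatty acid transport protein, had 604, 1628, 1019, 1023 and 642 in EDL, 1913, 2159.6, 2498, 605 and 1449.7 in psoas and 4707, 2382 and 2129 in soleus. Soleus was above EDL without overlap and overlapped psoas, with a log2 fold change of 1.64 (SE 0.42, edgeR adjusted p = 0.0455) against EDL, 1.04 within T4 and 1.39 within T6. *Cd36*, the fatty acid translocase of the plasma membrane, had 8588 ± 2748 (SD, n = 5) in EDL, 7326 ± 2096 (SD, n = 5) in psoas and 13221 ± 634 (SD, n = 3) in soleus. Its soleus libraries were also above all others, but the log2 fold change against EDL was 0.62 (SE 0.297, edgeR adjusted p = 0.341) and did not pass. In psoas against EDL the median of the 3 genes was −0.048, with *Slc27a1* at 0.81 (SE 0.374, edgeR adjusted p = 0.147). *Cd36* and *Slc27a1* are also expressed by fat cells, and the summed level of 8 adipocyte markers was 264633 to 337010 in soleus, 80985 to 257552 in EDL and 94432 to 144948 in psoas. Most of each sum came from *Car3*, which muscle fibres also express, and the other 7 markers summed to 55392 to 86031 in soleus, 9385 to 28899.6 in EDL and 14759.8 to 38300.1 in psoas. In soleus against EDL, 0.533% of all genes were called higher and 47.4% were above 0. Of the 8 markers, 3 were called higher and all 8 were above 0. Their part in the result was not tested.

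Genes of activation and of the carnitine shuttle pointed in both directions. *Acsl1*, the main long-chain acyl-CoA synthetase of muscle and fat, had 1236 to 3464 in EDL, 2359 to 5788 in psoas and 4236 to 5756 in soleus. Soleus was above EDL without overlap, with a log2 fold change of 1.30 (SE 0.364, edgeR adjusted p = 0.0661), and psoas overlapped EDL at 0.76 (SE 0.324, edgeR adjusted p = 0.115). *Slc25a20*, the carnitine-acylcarnitine translocase of the inner membrane, went the other way, from 2770.1 ± 859 (SD, n = 5) in EDL to 1668 ± 309 (SD, n = 5) in psoas, a log2 fold change of −0.73 (SE 0.229, edgeR adjusted p = 0.0396). *Cpt2*, which returns the acyl group to coenzyme A inside the mitochondrion, had log2 fold changes of 0.019 in psoas and 0.31 in soleus against EDL and 0.29 in soleus against psoas, none of which passed.

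Carnitine palmitoyltransferase 1 on the outer membrane, the step that malonyl-CoA inhibits, has a liver form, *Cpt1a*, and a muscle form, *Cpt1b*. *Cpt1a* had 450.1, 667, 464, 378 and 580.2 normalized counts in EDL, 491, 1022, 801, 589.7 and 686 in psoas and 344, 611 and 349 in soleus. Psoas was above EDL in each of the 5 pairs of the same replicate number although the groups overlapped, and the log2 fold change was 0.50 (SE 0.242, edgeR adjusted p = 0.167), with an edgeR adjusted p of 0.0385 when the replicate number was a block. *Cpt1b* had 21.7, 36.4, 7.96, 20.7 and 40.6 in EDL, 6.99, 10.1, 22.9, 17.4 and 26.5 in psoas and 19.4, 22.9 and 25.8 in soleus, the lowest level per kilobase of the 43 genes in every muscle, although it is known as the muscle form. In the reference annotation 81.4% of its exon bases are shared with *Gm44502*, a readthrough gene on the same strand that is not in the tables, and how reads on shared bases were assigned is not given in the sources used here, so that its level is uncertain. The log2 fold change of *Cpt1b* was −0.64 (SE 0.447, edgeR adjusted p = 0.342) in psoas against EDL. The log2 ratio of *Cpt1a* to *Cpt1b* was 4.34, 4.18, 5.78, 4.16 and 3.82 in EDL, 6.04, 6.59, 5.10, 5.05 and 4.67 in psoas and 4.11, 4.71 and 3.73 in soleus. The ratio in psoas exceeded that in EDL by 1.03 with overlap (exact permutation test, two-sided, p = 0.0794, adjusted p = 0.159 over the 12 ratio tests). The difference did not keep its direction within the codes, at 2.41 in T4, −0.68 in T5 and 0.87 in T6. Soleus was at −1.30 against psoas (exact permutation p = 0.0714, adjusted p = 0.159).

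Among the acyl-CoA dehydrogenases, each of which takes a range of chain lengths, *Acadl* (long chain) had 1113 to 1931 normalized counts in EDL and 1694 to 2738 in psoas, with a log2 fold change of 0.62 (SE 0.214, edgeR adjusted p = 0.0584). *Acadm* (medium chain) had 2619 to 5915 in EDL and 1308 to 4474 in psoas, with −0.84 (SE 0.312, edgeR adjusted p = 0.0754). The 2 dehydrogenases thus pointed in opposite directions, both with overlap and neither past an adjusted p of 0.05. *Acadvl* (very long chain) and *Acads* (short chain) were at −0.58 and 0.21. In the exon annotation, 42.9% of *Acadvl* is shared with *Dvl2* on the opposite strand, and whether strand was used in counting is not given in the sources used here. Between soleus and EDL the 4 genes ranged from −0.17 to 0.59, with no adjusted p under 0.05 by edgeR.

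The 5 genes of hydration, dehydrogenation and thiolysis were all below 0 in psoas against EDL (4 of 5 above 0 with total-count scaling), with a median log2 fold change of −0.44 and a range from −0.64 (*Hadhb*) to −0.15 (*Acaa2*), and none had an adjusted p under 0.05 by edgeR. *Echs1*, the short-chain enoyl-CoA hydratase, was at −0.44 and *Hadh*, the hydroxyacyl-CoA dehydrogenase, at −0.22. Between soleus and EDL the 5 genes lay between −0.018 and 0.13. *Hadha* and *Hadhb* encode the alpha and beta subunits of the mitochondrial trifunctional protein, which carries out the last 3 steps for long chains. *Hadha* had 3682, 4956, 4517, 2508 and 4857 normalized counts in EDL, 2113, 2468, 2985, 3062 and 4269 in psoas and 3980.0, 4471 and 3683 in soleus. *Hadhb* had 6627, 9147, 8837, 5049 and 13171 in EDL, 2559.7, 4073, 5705, 5757 and 9501 in psoas and 8522, 7687 and 11697 in soleus. Both were lowest in psoas replicate 1, and all 3 muscles overlapped. The log2 ratio of the subunits had an SD of 0.337 over the 13 libraries. The genes lie head to head on chromosome 5, and their window of shared promoter sequence is shown because it is the only place where 2 of the 43 genes meet at their starts. In RefSeq (GRCm38.p6) *Hadha* starts at position 30154980 on the minus strand and *Hadhb* at 30155253 on the plus strand, with 272 bases between. In the reference annotation used for symbols the 2 starts are 86 bases apart, so the positions depend on the annotation. The window from 250 bases before to 50 bases after the *Hadhb* start, chr5:30155003-30155302 on the plus strand, shares 228 bases with the same window of *Hadha*. The 50 bases of *Hadhb* that are transcribed from the RefSeq start are in capitals.
Hadhb window: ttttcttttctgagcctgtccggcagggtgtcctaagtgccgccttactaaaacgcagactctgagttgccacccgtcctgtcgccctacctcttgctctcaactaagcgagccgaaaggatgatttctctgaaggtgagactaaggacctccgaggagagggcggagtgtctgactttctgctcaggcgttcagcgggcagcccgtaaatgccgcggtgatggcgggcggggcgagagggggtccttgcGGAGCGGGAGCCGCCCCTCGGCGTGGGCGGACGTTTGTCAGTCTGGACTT
RefSeq start windows were matched for 39 of the 43 genes (all but *Decr1*, *Acaa2*, *Cpt1b* and *Idh3a*). The 9 bases TCAAGGTCA, a motif of the estrogen-related receptors, were found on either strand in 0 of the 39 genes and in 0.466% of 27025 genes with a window. The AGGTCA direct repeat with 1 base between, the motif of the PPAR family, was found in 0 of the 39 and in 0.0481% of all. Both motifs hold the letters AGGTCA and can overlap. The windows of the 39 genes had a median GC content of 60.7%, against 52.7% over all.

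The auxiliary enzymes that prepare unsaturated fatty acids, *Eci1*, *Eci2* and *Decr1*, were at −0.60, −0.58 and −0.49 in psoas against EDL. The electron transfer flavoprotein subunits *Etfa* and *Etfb* and their dehydrogenase *Etfdh*, which pass electrons from the acyl-CoA dehydrogenases to ubiquinone, were at −0.24, −0.78 and −0.74. The edgeR adjusted p values of these 6 genes ranged from 0.0506 (*Etfdh*) to 0.594 (*Etfa*). Between soleus and EDL the 6 genes lay between −0.18 and 0.29. The *Etfb* value is uncertain, since 53.0% of its exon bases are shared with *Gm45233* on the same strand, which is not in the tables.

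*Ucp3*, a mitochondrial uncoupling protein of muscle that rises with fatty acid supply, varied widely, from 537 to 3900.0 normalized counts in EDL, 362 to 1655 in psoas and 272 to 1044 in soleus. Its log2 fold change was −1.12 (SE 0.572, edgeR adjusted p = 0.188) in psoas and −1.67 (SE 0.7, edgeR adjusted p = 0.261) in soleus against EDL. The kinase *Pdk4*, which shuts off the pyruvate dehydrogenase complex and rises in fasting, was the most variable of the 43 genes in EDL and soleus. It had 5409, 62947, 18565, 1924 and 8697 in EDL, 5894, 16895, 18705, 3371 and 7649.9 in psoas and 5315, 33536 and 3739.6 in soleus, with the highest values in EDL replicate 2 and soleus replicate 2. *Pdk4* also had the highest mean level per kilobase of the 43 genes in all 3 muscles. This level was 5556 ± 7139 normalized counts per kilobase (SD, n = 5) in EDL and 2991 ± 1955 (SD, n = 5) in psoas. In soleus it was 4044 ± 4775 (SD, n = 3). The SD exceeded the mean in EDL and soleus, whose means were raised by replicate 2 of each. *Pdk2*, the kinase isoform expressed in most tissues, had 268, 781, 703, 200.4 and 235 normalized counts in EDL, 675, 318, 441, 364 and 379 in psoas and 377, 478 and 209.8 in soleus. The muscles overlapped for both kinases, and the log2 fold changes in psoas against EDL were −0.91 (SE 0.835, edgeR adjusted p = 0.48) for *Pdk4* and −0.016 (SE 0.391, edgeR adjusted p = 0.983) for *Pdk2*. The log2 ratio of *Pdk4* to *Pdk2* was 4.77 ± 1.13 (SD, n = 5) in EDL, 4.36 ± 1.21 (SD, n = 5) in psoas and 4.70 ± 1.25 (SD, n = 3) in soleus, differences smaller than the spread within a muscle (exact permutation tests, two-sided, p = 0.611 to 0.911). By the study's methods the mice had free access to food, and their feeding state at death is not given. The part of feeding in these values was not tested.

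The pyruvate dehydrogenase complex converts pyruvate to acetyl-CoA, and the median log2 fold change of its 4 genes in psoas against EDL was −0.77. *Dld*, the dihydrolipoamide dehydrogenase subunit that this complex shares with the 2-oxoglutarate dehydrogenase complex, had 4662, 5535, 6657, 4299 and 5518 normalized counts in EDL, 2525, 2651, 3078, 3188 and 4474 in psoas and 4437, 3876 and 3293 in soleus. Psoas replicate 5 overlapped EDL and the other 4 psoas libraries lay below it, with a log2 fold change of −0.75 (SE 0.204, edgeR adjusted p = 0.022). *Pdha1* and *Pdhb*, the alpha and beta subunits of the first enzyme, were at −0.93 (SE 0.261, edgeR adjusted p = 0.0248) and −0.80 (SE 0.274, edgeR adjusted p = 0.0568). *Dlat*, the second enzyme, was at −0.15 (SE 0.268, edgeR adjusted p = 0.742). For soleus the 4 genes ranged from −0.61 to −0.01 against EDL and none had an adjusted p under 0.05 by edgeR.

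The citric acid cycle and the malate dehydrogenases had the lowest median between psoas and EDL of the groups of 3 or more genes. Of its 13 genes, 12 were below 0 (all but 3 with total-count scaling), with a median log2 fold change of −0.89. At an adjusted p under 0.05, 7 of the 13 were lower, against 9.06% of all genes. For *Idh3b*, *Idh3g*, *Sucla2* and *Mdh2* every psoas library lay below every EDL library. These were the only genes of the 43 without overlap between EDL and psoas, where 6.56% of all genes were lower and 6.48% higher in this way. *Cs*, citrate synthase, whose activity is often used as a measure of mitochondrial content, was at −0.27 (SE 0.242, edgeR adjusted p = 0.461), and *Dlst*, the second enzyme of the 2-oxoglutarate dehydrogenase complex, was at 0.0033 (SE 0.269, edgeR adjusted p = 0.995).

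**Figure D3:**
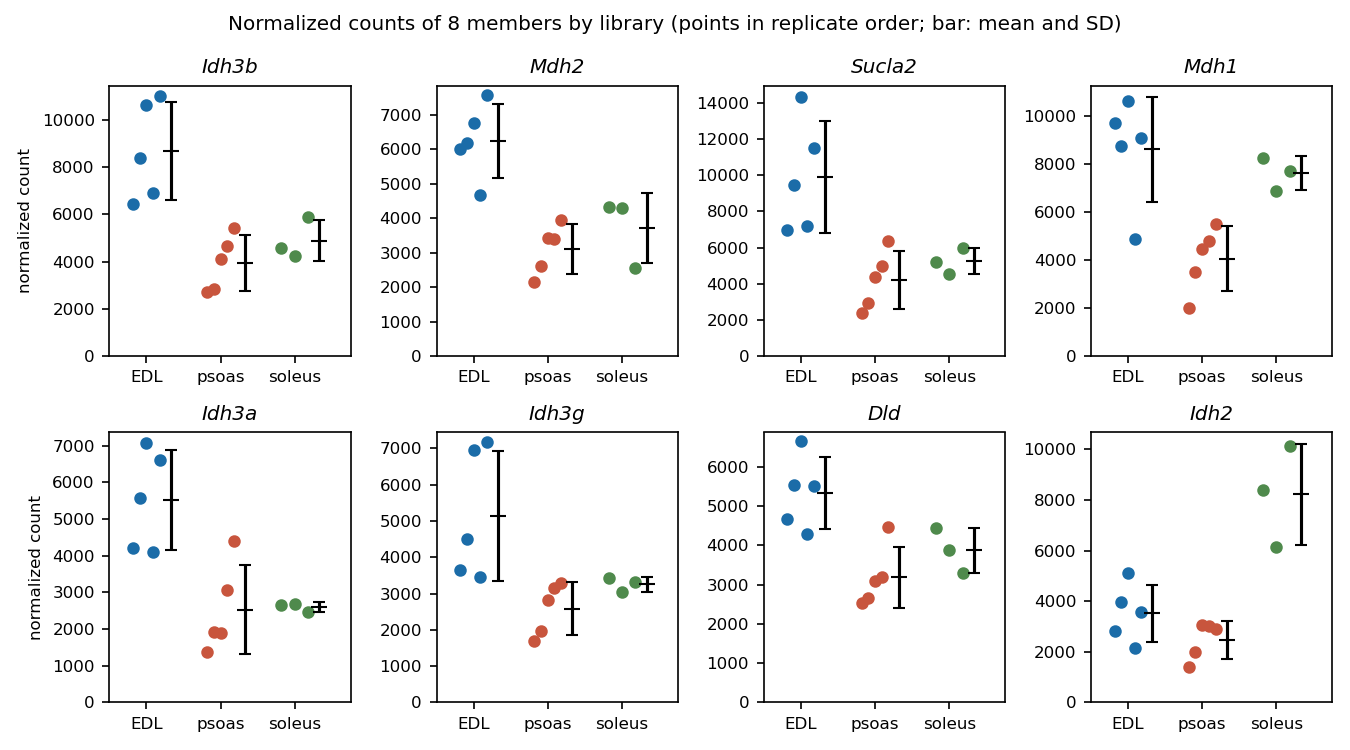
Normalized counts of *Idh3b*, *Mdh2*, *Sucla2*, *Mdh1*, *Idh3a*, *Idh3g*, *Dld* and *Idh2* in each library, in order of replicate number within each muscle, with bars for the mean ± SD. *Idh2* is highest in the 3 soleus libraries, at 6151 to 10141, and the other genes are highest on average in EDL.

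NAD-dependent isocitrate dehydrogenase is built of the subunits encoded by *Idh3a*, *Idh3b* and *Idh3g*. All 3 were lower in psoas against EDL at an adjusted p under 0.05, where 9.06% of all genes were. *Idh3b* (ENSMUSG00000027406, chr2:130279309-130284547, GRCm38) had 6448, 8401, 10615, 6915 and 11020.3 normalized counts in EDL, 2706, 2815, 4126, 4668 and 5433 in psoas and 4573, 4214 and 5873 in soleus. All psoas and all soleus libraries lay below all EDL libraries. The log2 fold change in psoas was −1.14 (SE 0.247, edgeR adjusted p = 0.00823), and within the codes T4, T5 and T6 the difference was −1.58, −1.36 and −0.79. With 1 library left out, the call was kept without EDL replicate 1, EDL replicate 4, psoas replicate 5 or soleus replicate 3 and lost without any of the other 9, with edgeR adjusted p values from 0.00723 to 0.0242 and log2 fold changes from −1.28 to −1.03. In soleus against EDL the log2 fold change was −0.83 (SE 0.289, edgeR adjusted p = 0.159).

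*Idh3a*, the catalytic subunit, had 4209, 5584, 7073, 4109 and 6616 normalized counts in EDL, 1373, 1923, 1905, 3053 and 4409.7 in psoas and 2669, 2675 and 2455 in soleus. Psoas replicate 5 lay above EDL replicates 1 and 4, all soleus libraries lay below EDL, and the log2 fold changes against EDL were −1.13 (SE 0.292, edgeR adjusted p = 0.0175) in psoas and −1.08 (SE 0.347, edgeR adjusted p = 0.117) in soleus. *Idh3g* had 3637, 4502, 6952, 3467 and 7162 in EDL, 1688, 1961, 2814, 3159 and 3294 in psoas and 3426, 3029 and 3315 in soleus. All psoas and soleus libraries lay below EDL, by a log2 fold change of −0.997 (SE 0.262, edgeR adjusted p = 0.0186) in psoas and −0.66 (SE 0.307, edgeR adjusted p = 0.329) in soleus. The log2 ratio of *Idh3g* to *Idh3b* had an SD of 0.174 over the 13 libraries, and that of *Idh3a* to *Idh3b* of 0.255.

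*Idh2*, the NADP-dependent isocitrate dehydrogenase of mitochondria, had a different order of muscles. It had 2806, 3956, 5108, 2141 and 3577 normalized counts in EDL, 1404, 1996, 3052, 3004 and 2894 in psoas and 8387, 6151 and 10141 in soleus, so that every soleus library lay above every other library. The log2 fold change in soleus was 1.74 (SE 0.313, edgeR adjusted p = 0.0228) against psoas and 1.23 (SE 0.313, edgeR adjusted p = 0.0453) against EDL, the latter 0.86 within T4 and 1.87 within T6, and in psoas against EDL it was −0.52 (SE 0.278, edgeR adjusted p = 0.209). Against psoas it was the gene with the lowest adjusted p of the 43, and the difference was 1.85 within code T4 and 1.78 within T6. With DESeq2 it was called higher in soleus in both comparisons (adjusted p = 0.0069 against EDL and 4.17e-05 against psoas). *Idh2* was the only one of the 13 citric acid cycle genes above 0 in soleus against EDL, where the median was −0.62. Every soleus library lay below every EDL library for 6 of the other genes, *Idh3a*, *Idh3b*, *Idh3g*, *Sucla2*, *Suclg1* and *Mdh2*, against 5.72% of all genes, and none of these passed an adjusted p of 0.05 by edgeR.

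Succinyl-CoA ligase pairs a common alpha subunit, *Suclg1*, with a beta subunit that sets the nucleotide, ATP for *Sucla2* and GTP for *Suclg2*. *Sucla2* had 6989, 9454, 14348, 7209.9 and 11507 normalized counts in EDL, 2392, 2946, 4386, 4992 and 6380.0 in psoas and 5202, 4539.9 and 5982 in soleus. All psoas and soleus libraries lay below all EDL libraries. The log2 fold change in psoas, −1.24 (SE 0.288, edgeR adjusted p = 0.0109), had the largest size of the 43 genes and missed the call, and with the replicate number as a block it was called (log2 fold change −1.26, edgeR adjusted p = 0.00685). *Suclg2* had 829.9, 1212, 1352, 865 and 1244 in EDL, 532, 654, 901, 717 and 868 in psoas and 1118, 963 and 989 in soleus. EDL and psoas overlapped, with a log2 fold change of −0.59 (SE 0.197, edgeR adjusted p = 0.0519), and all soleus libraries lay above all psoas libraries. *Suclg1* was at −0.87 (SE 0.292, edgeR adjusted p = 0.0514) in psoas and −0.85 (SE 0.346, edgeR adjusted p = 0.246) in soleus against EDL.

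The balance of the beta subunits had its highest values in EDL. The log2 ratio of *Sucla2* to *Suclg2* was 3.07, 2.96, 3.41, 3.06 and 3.21 in EDL, 2.17, 2.17, 2.28, 2.80 and 2.88 in psoas and 2.22, 2.24 and 2.60 in soleus. Every psoas and every soleus library lay below every EDL library, with a difference of −0.68 in psoas and −0.79 in soleus. The exact permutation tests gave p = 0.00794 and 0.0179, each the smallest that the design allows, and an adjusted p of 0.0714 over the 12 ratio tests, above the threshold of 0.05. All 5 pairs of the same replicate number were below 0 (exact paired permutation p = 0.0625, the smallest possible), and the difference within T4, T5 and T6 was −0.79, −1.13 and −0.30. Soleus and psoas differed by −0.11 (exact permutation p = 0.607).

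Of the other cycle enzymes, *Fh1*, fumarate hydratase, was at −0.89 (SE 0.295, edgeR adjusted p = 0.0488) in psoas against EDL and *Ogdh*, the first enzyme of the 2-oxoglutarate dehydrogenase complex, at −0.80 (SE 0.302, edgeR adjusted p = 0.0793). Malate dehydrogenase closes the cycle in mitochondria (*Mdh2*) and serves the malate-aspartate shuttle in the cytosol (*Mdh1*). *Mdh2* (ENSMUSG00000019179, chr5:135778480-135790398, GRCm38) had 6025, 6174, 6777, 4673 and 7574 normalized counts in EDL, 2161, 2607, 3418, 3395 and 3949.7 in psoas and 4314, 4293 and 2553 in soleus. All psoas and soleus libraries lay below all EDL libraries, and the log2 fold change in psoas was −1.01 (SE 0.225, edgeR adjusted p = 0.0092), within T4, T5 and T6 −1.24, −0.99 and −0.70. The call was lost with the label code as a block (log2 fold change −0.91, edgeR adjusted p = 0.0191). With 1 library left out it was kept only without EDL replicate 4, psoas replicate 5 or soleus replicate 3, with edgeR adjusted p values from 0.00704 to 0.0276.

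*Mdh1* had 9720.2, 8756, 10645, 4896 and 9078 normalized counts in EDL, 1990.5, 3497, 4477, 4789.9 and 5505 in psoas and 8264, 6871 and 7725 in soleus. EDL replicate 4 lay among the psoas libraries, and soleus lay within EDL and above all psoas libraries. The log2 fold change was −1.09 (SE 0.275, edgeR adjusted p = 0.0155) in psoas against EDL, −0.17 (SE 0.316, edgeR adjusted p = 0.859) in soleus against EDL and 0.92 (SE 0.308, edgeR adjusted p = 0.234) in soleus against psoas. The log2 ratio of *Mdh1* to *Mdh2* was 0.69, 0.50, 0.65, 0.067 and 0.26 in EDL, −0.12, 0.42, 0.39, 0.50 and 0.48 in psoas and 0.94, 0.68 and 1.60 in soleus. Soleus was above psoas by 0.74 without overlap (exact permutation test, two-sided, p = 0.0179, adjusted p = 0.0714) and above EDL by 0.64 (p = 0.0357, adjusted p = 0.107, same exact test), and neither passed after adjustment. Soleus replicate 3, with the lowest *Mdh2* of the 3, had the highest ratio.

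**Figure D4:**
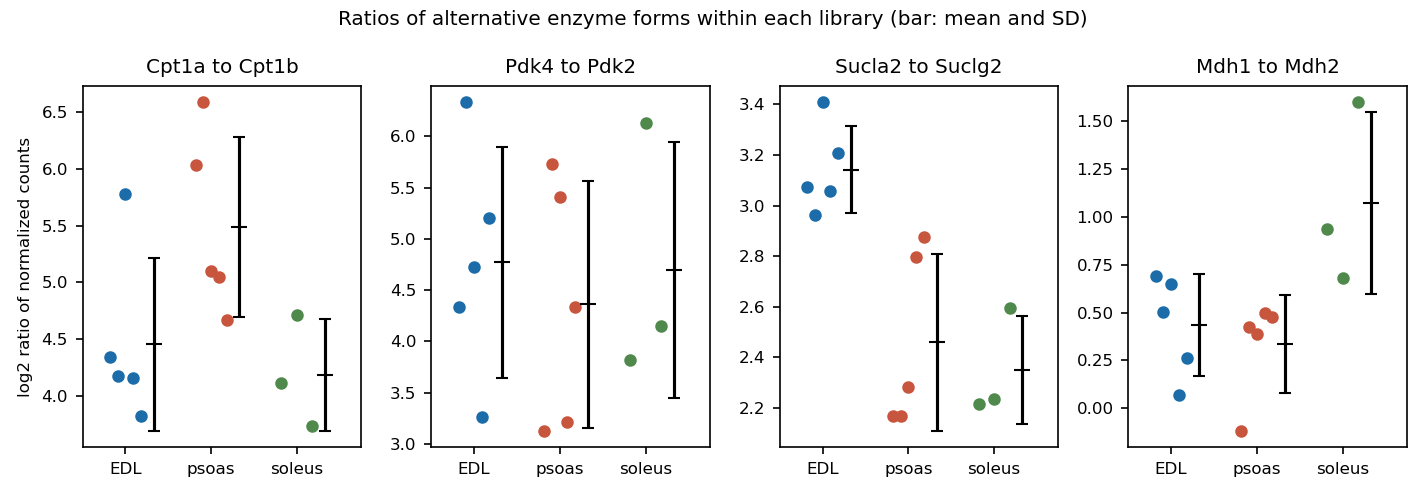
Log2 ratios of normalized counts plus 0.5 for *Cpt1a* to *Cpt1b*, *Pdk4* to *Pdk2*, *Sucla2* to *Suclg2* and *Mdh1* to *Mdh2*, per library and muscle, with bars for the mean ± SD. The *Sucla2* to *Suclg2* ratio is 3.14 ± 0.172 in EDL (n = 5), 2.46 ± 0.350 in psoas (n = 5) and 2.35 ± 0.213 in soleus (n = 3), with EDL above both.

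The median fold changes differed with the place in the pathway. Among the groups of 3 or more genes, the medians in psoas against EDL were −0.048 for uptake, 0.019 for activation and the carnitine shuttle, −0.18 for the acyl-CoA dehydrogenases, −0.44 for hydration to thiolysis, −0.58 for the auxiliary enzymes, −0.74 for electron transfer, −0.77 for the pyruvate dehydrogenase complex and −0.89 for the citric acid cycle. In soleus against EDL the medians of uptake and of the citric acid cycle were 1.17 and −0.62, and in soleus against psoas they were 0.86 and 0.31. The difference between these groups was not tested. Against psoas, 5 of the 43 genes (*Cd36*, *Fabp3*, *Idh2*, *Mdh1* and *Suclg2*) had every soleus library above every psoas library and 0 had every one below, where 4.97% and 5.19% of all genes did so.

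**Figure D5:**
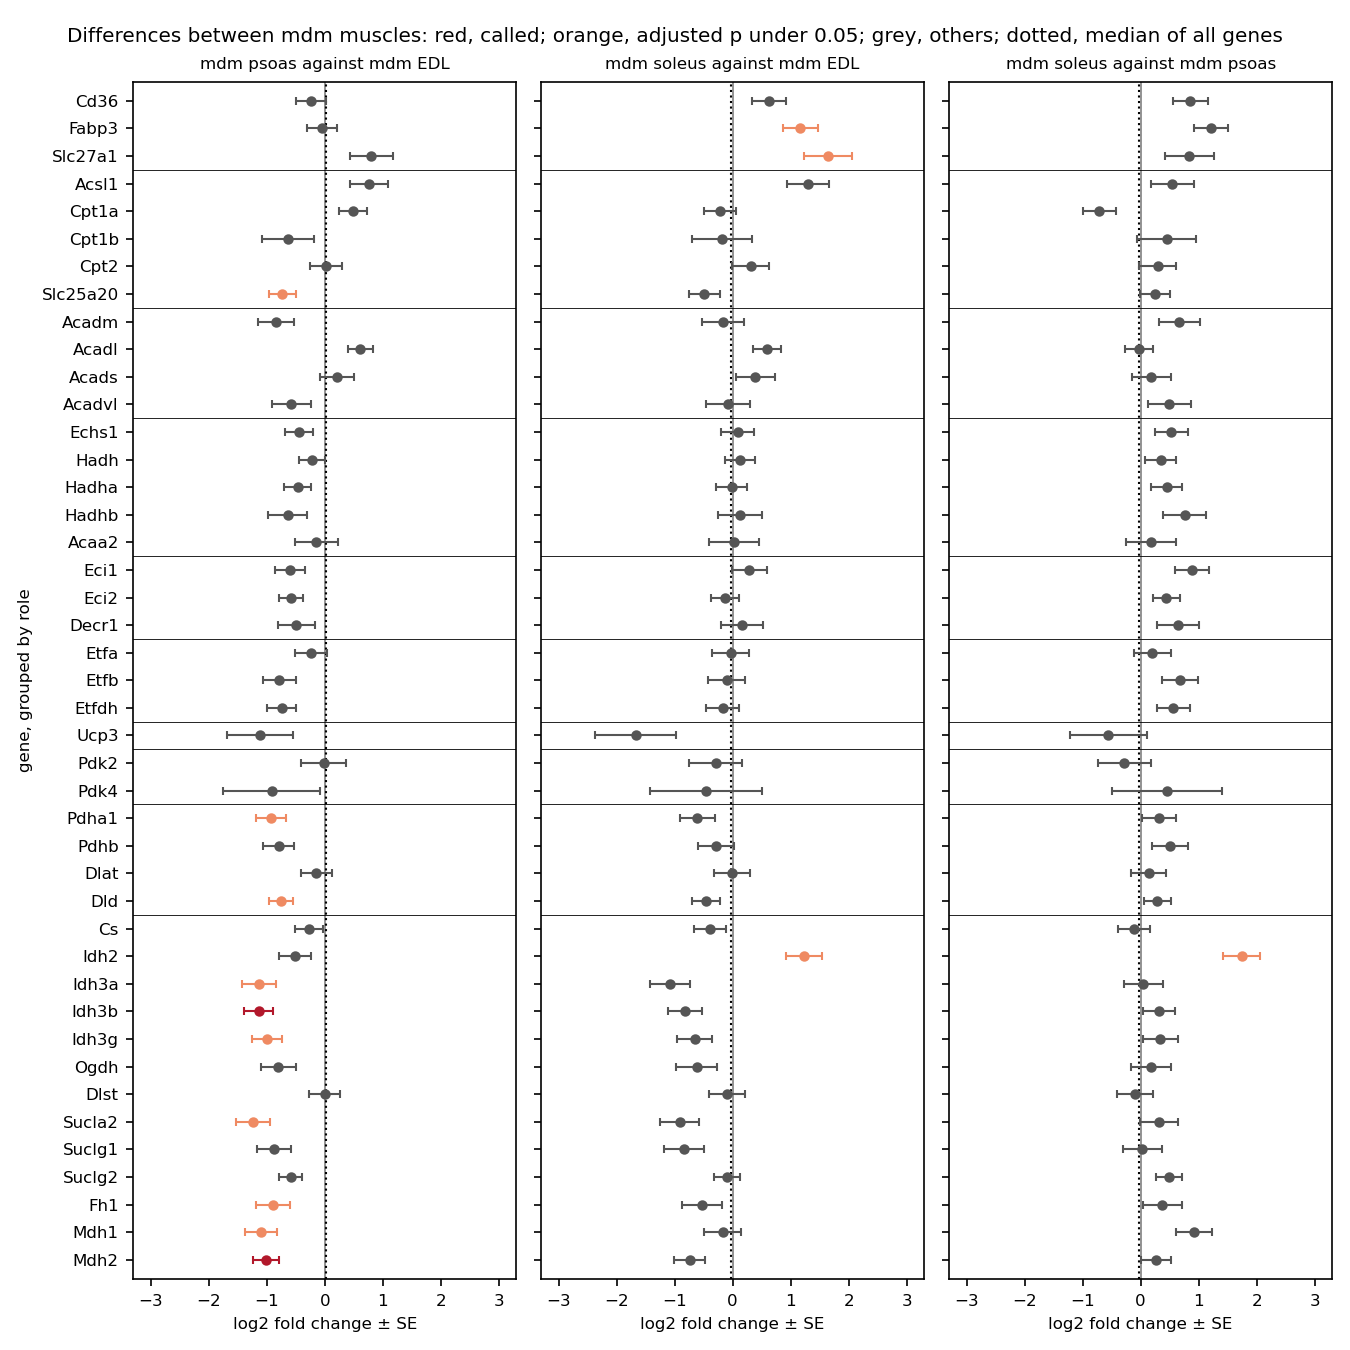
Log2 fold change ± SE of each of the 43 genes, by role, in psoas against EDL, soleus against EDL and soleus against psoas. Red marks called genes, orange an edgeR adjusted p under 0.05, grey the rest, and the dotted line is the median of all genes. *Idh3b* and *Mdh2* are the 2 red points, both in psoas against EDL.

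Other gene lists differed between psoas and EDL as well, where 2.5% of all genes were called lower and 2.43% higher. The 36 complex I subunits had a median log2 fold change of −1.03, with all below 0 and 10 called lower. For 22 of the 36, every psoas library lay below every EDL library, against 6.56% of all genes. The 16 glycolysis genes had a median of −1.25, with 7 called lower and 1 higher, and 7 muscle fibre markers a median of −0.79, with 1 called lower, *Ckm*, the muscle creatine kinase. The median of the 43 genes was thus nearer to 0 than that of each of these lists. Fast fibre markers had a median of −1.70, with 4 of 9 called lower and summed levels of 201027 to 586474 in psoas and 966732 to 2154350 in EDL, and slow fibre markers a median of −0.11. For soleus against EDL the medians were −0.53 for complex I and −1.29 for glycolysis, against −0.13 for the 43 genes. Other cells also moved with the muscles: 4 of 4 mesothelial markers were called higher in psoas than in EDL, with summed levels of 173 to 908 in psoas, 25.7 to 95.4 in EDL and 27.9 to 92.8 in soleus, and with *Bnc1* at 0 in all 5 EDL libraries. Endothelial, macrophage and fibroblast markers had medians of 0.042, 0.44 and 0.046 in psoas against EDL, with 0 called by edgeR. Their part in the results was not tested.

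Of 70 further genes of the same pathways, 2 were called higher and 8 lower in psoas against EDL, where 2.43% and 2.5% of all genes were. In soleus against EDL, 2 were called higher and 1 lower, against 0.533% and 0.445% of all genes. In soleus against psoas 0 were called, against 0.0703% higher and 0.00586% lower of all genes. The unadjusted p there was under 0.05 for 13 higher and 3 lower, against 6.19% and 6.48% of all genes. The malate-aspartate shuttle genes *Slc25a12*, the aspartate-glutamate carrier, and *Got2*, the mitochondrial aspartate aminotransferase, fell in psoas from 7284 ± 2937 to 2084 ± 733 and from 8027 ± 2283 to 3102 ± 669 (SD, n = 5 each), log2 fold changes of −1.81 (SE 0.316, edgeR adjusted p = 0.003) and −1.38 (SE 0.251, edgeR adjusted p = 0.00361). *Got1*, the cytosolic aminotransferase, had a log2 fold change of −1.81 (SE 0.366, edgeR adjusted p = 0.00595) with overlap of the libraries, and was not called with the replicate block (edgeR adjusted p = 0.0143). *Me3*, a mitochondrial malic enzyme, fell in both, with −1.44 (SE 0.209, edgeR adjusted p = 0.00125) in psoas and −1.98 (SE 0.258, edgeR adjusted p = 0.00137) in soleus against EDL. At the entry of pyruvate, *Mpc1*, a subunit of the mitochondrial pyruvate carrier, fell from 3929 ± 836 to 1506 ± 564 (SD, n = 5 each), a log2 fold change of −1.39 (SE 0.256, edgeR adjusted p = 0.00386). The phosphatases that reactivate the pyruvate dehydrogenase complex moved in opposite directions, *Pdp1* with −1.13 (SE 0.243, edgeR adjusted p = 0.0082) and *Pdp2* with 1.52 (SE 0.274, edgeR adjusted p = 0.00348), the latter from 32.3 ± 10.2 to 94 ± 26.2 normalized counts (SD, n = 5 each). The acyl-CoA genes *Acsl6* and *Acot13* were lower (−1.36 and −1.31, edgeR adjusted p = 0.00873 and 0.00676). *Ogdhl*, a separate gene related to *Ogdh*, was higher (1.89, edgeR adjusted p = 0.00427) at a mean of only 5.44 in EDL. In soleus against EDL, *Pparg* and *Lipe*, both central to fat cells, were higher by 1.88 (SE 0.352, edgeR adjusted p = 0.00964) and 1.99 (SE 0.344, edgeR adjusted p = 0.00707). With 1 library left out, *Slc25a12* and *Me3* were called in psoas in all 13 fits, and each of the other calls on these further genes was kept in 2 to 12 of the 13. The succinate dehydrogenase subunits *Sdha* and *Sdhb*, named after their values were seen because the enzyme is a step of the cycle, were at −1.05 (SE 0.278, edgeR adjusted p = 0.0195) and −1.17 (SE 0.297, edgeR adjusted p = 0.016) in psoas against EDL and were not called.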

How the data were processed

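RNA from 13 whole muscles was sequenced after ribosomal depletion (TruSeq Stranded Total RNA, 75-base paired reads). According to the submitters' notes and the study's methods, the authors trimmed the libraries of low base quality with Trimmomatic 0.32 and left the others untrimmed, aligned reads to GRCm38.p4 with TopHat2 2.1.1 and deposited whole-number counts per Ensembl gene, counted with GenomicAlignments (the overlap and strand setting is not given in the sources used here). They also deposited normalized counts, a signal equal to the count divided by a DESeq2 size factor. Symbols came from the reference annotation (17833 of 17924 genes).

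The 17069 genes that reached 10 normalized counts in 3 or more libraries were fitted in edgeR 4.0.16 (quasi-likelihood F-test, TMM scaling, all 13 libraries) under R 4.3.3, with Benjamini-Hochberg adjustment over all 17069. DESeq2 1.42.0 and limma 3.58.1 were alternatives. On simulated counts, edgeR recovered 100% of 200 genes changed 8-fold in psoas against EDL among 17069 genes. The simulation gave every gene the same spread and changed only genes of higher mean counts. That spread was below the median SD of the 43 genes, which was 28.5% of the mean in EDL and 34.1% in psoas. The measured log2 fold changes of the 43 genes there ran from −1.24 to 0.81. Recovery of changes that small, or at the spread of the data, was not tested. Ratios used normalized counts plus 0.5 and exact two-sided permutation tests, adjusted over 12 tests. No libraries were duplicates (chi-square per degree of freedom of at least 53.1 over 23 pairs). Replicate numbers were used to match EDL with psoas libraries. The deviations from the muscle means correlated at 0.41, 0.37, 0.32, 0.29 and 0.37, and replicates 2 to 5 share age and code. Replicate 1 differs in both. Libraries of unlike numbers were not correlated, so these values do not show that libraries of the same number belong together. Soleus libraries differ in age from EDL and psoas libraries of the same number, and correlated with them at −0.16 to 0.42 and −0.30 to 0.16. Full values were given for called genes, then for those of lowest adjusted p to 8, and for genes of the 4 ratios, and for further pathway genes that were called. Other values given per gene were chosen after they were seen. The 43 genes and all lists were chosen with earlier results of these data known. Replicate-level depth, from 9114176 to 48835209 counts, left no member with 0 counts.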

Additional observations from a re-analysis of the deposited data

Results flagged for a closer look

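*Pdk4* in *mdm* EDL replicate 2, at 62947 normalized counts, lay far from the other 4 EDL libraries, of which the highest held 18565. The gap was 0.727 of the range of the group, above Dixon's 95% limit for 5 samples. It was the 1 of 86 groups of values checked (43 genes in EDL and in psoas) to pass that limit, and chance alone passes about 1 in 20.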

How the results depend on the processing

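The number of the 43 genes called lower in psoas against EDL, 2 by edgeR, was 3 with a replicate block that paired EDL and psoas libraries (*Idh3b*, *Mdh2* and *Sucla2*), 10 at an adjusted p under 0.05 without a fold limit, 6 with DESeq2, 4 with limma, 1 without a filter on low counts, 0 with only the 2 muscles in the fit and 0 with total-count scaling. Leaving out 1 library gave 0 to 5. Over all genes, 426 were called lower by edgeR, 565 with the replicate block, 1547 at an adjusted p under 0.05 and 774 with DESeq2. The number was 493 with limma, 383 without a filter, 261 with only the 2 muscles, 163 with total-count scaling and 147 to 449 with 1 library left out. The number of the 43 genes called higher there was 0, and 3 with total-count scaling, where 2119 of all genes were. In soleus against EDL it was 0, and 3 with each of the adjusted p under 0.05, DESeq2 and total-count scaling, where 301, 270 and 237 of all genes were. In soleus against psoas it was 0, and 1 with the adjusted p under 0.05 and with DESeq2, where 74 and 95 of all genes were. The causes were not tested, and the fit of 2 muscles also has fewer libraries. The replicate block changed no other call on the 43 genes. Beside *Got1*, it took the soleus calls of *Me3*, *Pparg* and *Lipe* against EDL (adjusted p = 0.0126, 0.0108 and 0.0114, edgeR), where libraries of the same number differ in age. With 1 library left out, the log2 ratio differences ranged over 0.76 to 1.36 (psoas minus EDL), −0.53 to 0.060 (soleus minus EDL) and −1.57 to −1.03 (soleus minus psoas) for *Cpt1a* to *Cpt1b*, −0.79 to −0.019 (psoas minus EDL), −0.79 to 0.37 (soleus minus EDL) and −0.38 to 0.78 (soleus minus psoas) for *Pdk4* to *Pdk2*, −0.79 to −0.61 (psoas minus EDL), −0.92 to −0.73 (soleus minus EDL) and −0.23 to −0.0044 (soleus minus psoas) for *Sucla2* to *Suclg2* and −0.19 to 0.012 (psoas minus EDL), 0.37 to 0.83 (soleus minus EDL) and 0.47 to 0.93 (soleus minus psoas) for *Mdh1* to *Mdh2*. Within label codes, chosen after seeing the data, the psoas minus EDL difference of *Cpt1a* to *Cpt1b* was 2.41 (T4) and −0.68 (T5), of *Sucla2* to *Suclg2* −1.13 (T5) and −0.30 (T6) and of *Mdh1* to *Mdh2* 0.32 (T6), the soleus minus EDL difference was −1.36 (T4) for *Pdk4* to *Pdk2*, −0.54 (T6) for *Sucla2* to *Suclg2* and 1.43 (T6) for *Mdh1* to *Mdh2*, and the soleus minus psoas difference was −2.17 (T4) for *Cpt1a* to *Cpt1b*. Counts of 4 to 57 reads limit *Cpt1b*.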
